A study of Mus musculus with 6 samples.

Results

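Histone H3 dimethylated at lysine 79 (H3K79me2) was mapped by chromatin immunoprecipitation and sequencing in mouse neuroblastoma N2a cells, an established line, and the regions described here are the H3K79me2 regions that lie far from any annotated gene. They were chosen by measured values. The broad peaks of the 4 libraries were merged wherever they shared at least 1 bp on chromosomes 1 to 19, and a region was kept when it held a peak of every library and lay at least 10 kb from every gene of any type in GENCODE release M21. Of 49835 merged regions, 20216 held a peak in all 4 libraries, and 461 of these were far intergenic. Of the remaining shared regions, 19210 overlapped a gene and 545 lay under 10 kb from one. Presence in every library and distance from genes are therefore given and are no finding.

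The control cells (CTR) were transfected with a pLKO.1 plasmid carrying a non-target short hairpin RNA, and the knockdown cells (NPM1 KD) with a pLKO.1 plasmid carrying 1 hairpin against Npm1, the gene of the nucleolar protein nucleophosmin. Both were put under puromycin and collected after 3 days. Each group had 2 libraries, which the methods of the study describe as different passages transfected separately, and 1 pooled input that was not used here. A single hairpin in 1 cell line was used, so an effect of Npm1 loss and one of this hairpin cannot be told apart. The files hold intervals and scores and no RNA, so the depletion of Npm1 was not checked here. In a bulk culture, fewer marked cells and less mark per cell cannot be told apart either. The summit pileup recovered from the deposited fold and p of the strongest narrow peak of each far region had a median of 41 and 28 fragments in the CTR libraries 1 and 2 and of 34 and 41 in the NPM1 KD libraries 1 and 2, over a background of 11.9, 7.65, 8.99 and 11.8, so CTR 2 was the shallowest library. That background was the same single value, within 1%, for 94.4% to 99.5% of the far regions that could be solved in a library, so the fold of these regions was in practice their pileup over 1 constant. On 4 libraries, a permutation test of 2 against 2 cannot go below p = 0.33.

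H3K79me2 is set by DOT1L, the enzyme that methylates this lysine, and is known as a mark of transcription: it covers the first part of active genes, starting just after the promoter and fading toward the 3′ end. Some active enhancers carry it as well, and transcripts that no catalogue lists can carry it in the same way as genes. A neuroblastoma line resembles early sympathetic neurons, whose identity genes include the transcription factor Hand2 and the receptor Ret. Npm1 and Dot1l themselves had a shared region at the start, and their nearest far regions lay 1434 kb and 2989 kb away.

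The sequences at the strongest points of the mark are given first. They are the 300 bp centred on the highest narrow summit, read from GRCm38 (RefSeq assembly GRCm38.p6), for the 5 regions of highest fold whose window held no 50-base word found elsewhere in the genome, with the widest region among the 6 printed. The limit on repeated words was set after the values were seen, because several regions of high fold lie in repeats, described further on. Capitals mark matches to the motifs searched on both strands. The words were TGANTCA for AP-1, TGACGTCA for the cyclic AMP response element, CACGTG for an E-box, AGATAA for GATA factors, TAATTA for homeodomain factors, GCGCATGC for NRF1, AGGGGGCGC for the core of the CTCF motif and TATAAA for the TATA box.
Far from Kif20b, rank 1, chr19:35303506-35303805, plus strand: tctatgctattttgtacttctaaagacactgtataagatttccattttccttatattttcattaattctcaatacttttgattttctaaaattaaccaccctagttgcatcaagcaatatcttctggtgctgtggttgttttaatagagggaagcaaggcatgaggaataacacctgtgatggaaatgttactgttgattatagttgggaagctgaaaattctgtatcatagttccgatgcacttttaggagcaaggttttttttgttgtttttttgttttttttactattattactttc
Fbxo8 to Hand2, rank 4, chr8:56633393-56633692, plus strand: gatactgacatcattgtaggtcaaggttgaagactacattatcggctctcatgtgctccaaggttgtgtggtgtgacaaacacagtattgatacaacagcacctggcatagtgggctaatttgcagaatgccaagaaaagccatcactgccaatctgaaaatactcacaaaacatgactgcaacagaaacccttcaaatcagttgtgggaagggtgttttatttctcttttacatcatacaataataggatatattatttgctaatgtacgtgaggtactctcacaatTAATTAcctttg
Far from Mon1b, rank 6, chr8:113290033-113290332, plus strand: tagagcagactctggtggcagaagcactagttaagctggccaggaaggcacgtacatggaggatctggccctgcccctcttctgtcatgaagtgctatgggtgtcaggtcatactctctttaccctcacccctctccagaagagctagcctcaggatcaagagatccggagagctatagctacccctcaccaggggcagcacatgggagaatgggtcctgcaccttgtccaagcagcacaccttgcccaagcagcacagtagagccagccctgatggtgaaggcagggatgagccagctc
Far from Plxna2, rank 7, chr1:194412740-194413039, plus strand: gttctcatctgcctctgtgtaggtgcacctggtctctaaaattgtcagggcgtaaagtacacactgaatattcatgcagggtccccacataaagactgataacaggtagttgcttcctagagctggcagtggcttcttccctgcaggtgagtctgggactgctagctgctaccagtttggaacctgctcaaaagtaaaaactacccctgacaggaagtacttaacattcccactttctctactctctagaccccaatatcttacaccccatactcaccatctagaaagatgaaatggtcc
Edil3 side, rank 8, chr13:89382895-89383194, plus strand: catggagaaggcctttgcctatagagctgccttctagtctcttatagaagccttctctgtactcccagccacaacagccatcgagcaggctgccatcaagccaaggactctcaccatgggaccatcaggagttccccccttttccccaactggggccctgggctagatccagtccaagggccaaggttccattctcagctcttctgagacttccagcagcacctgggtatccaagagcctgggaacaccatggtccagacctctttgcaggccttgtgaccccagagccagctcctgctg
Tmem33 side, rank 9 and widest, chr5:67227507-67227806, plus strand: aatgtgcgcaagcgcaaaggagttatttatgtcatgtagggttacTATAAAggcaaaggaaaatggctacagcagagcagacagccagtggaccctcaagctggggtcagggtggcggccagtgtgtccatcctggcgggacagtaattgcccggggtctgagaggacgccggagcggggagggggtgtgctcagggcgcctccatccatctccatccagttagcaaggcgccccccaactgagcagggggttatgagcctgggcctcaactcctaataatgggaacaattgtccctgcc

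Only 2 of these 6 windows held a match, the homeodomain word in the window between Fbxo8 and Hand2 and the TATA word in the widest region. The window in the widest region was also the only one of the 6 with a CpG island within 1 kb of its summit, and it had a GC content of 57.7% and 0.408 of the CpG pairs expected from its base composition. The window of highest fold, far from Kif20b, was the poorest in GC at 31.3%. The others held 0.0430 to 0.178 of the expected CpG pairs. A match is a word in the sequence and not a bound site.

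Far intergenic regions were mostly short and weak, with a small set of long and strong ones. Their width had a median of 2355 bp and ran from 227 to 42084 bp, against a median of 5742 bp in the other shared regions. Widths of 5 kb or more were found in 95 far regions (20.6%, against 54.2% of the others), and 15 were 20 kb or wider. The strength used here is the deposited broad fold, a ratio to the MACS2 background, taken as the highest broad peak of a region and averaged over libraries. Its median was 2.41, with a range of 1.85 to 13.5. A mean fold of 5 or more was reached by 38 far regions (8.24%) and by 26.7% of the others. The lower bound of the fold comes from the peak caller and is no property of the regions.

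In each library the far regions were weaker than the other shared regions. The median highest fold was 2.35 and 2.46 in CTR 1 and 2 and 2.40 and 2.34 in NPM1 KD 1 and 2, against 2.68, 2.73, 2.76 and 2.60 in the others. The difference was -0.302 ± 0.0488 (SD, n = 4 libraries), lower in 4 of 4 (exact sign-flip permutation test, two-sided, p = 0.13, the least that 4 libraries allow). Against the shared regions under 10 kb from a gene the order turned, and far regions were higher by 0.0899 ± 0.0163 (SD, n = 4), again in 4 of 4 libraries (exact sign-flip permutation test, two-sided, p = 0.13). Their covered length was longer too, by 269 ± 66.8 bp (SD, n = 4). 

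**Figure D1:**
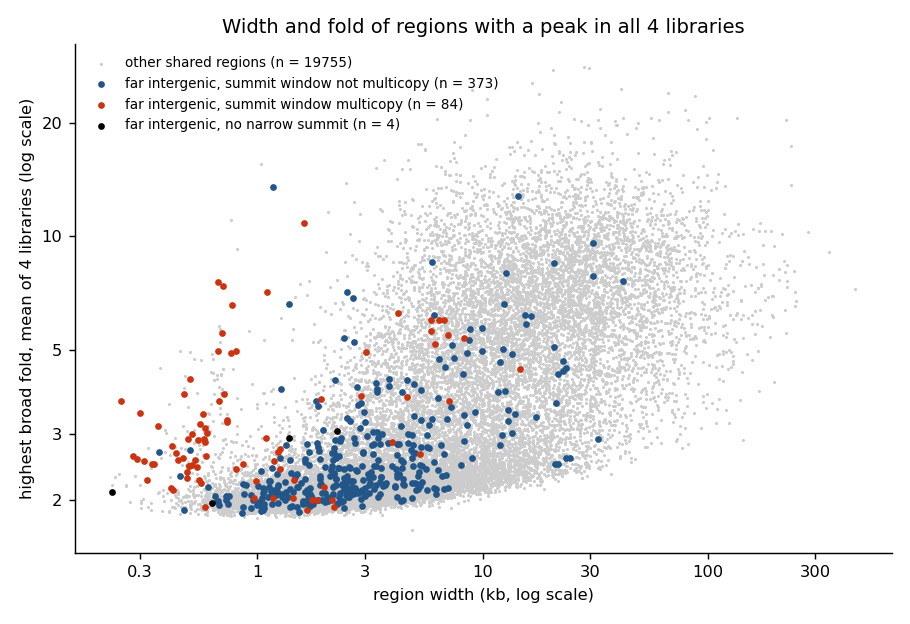
Each point is a region with a peak in all 4 libraries, with its width in kb on the x axis and the mean over 4 libraries of its highest broad fold on the y axis, both on log scales. Grey points are the 19755 other shared regions. Red points are the 84 far regions whose summit window is mostly found elsewhere in the genome. Blue points are the 373 whose window is not, and black points the 4 without a narrow summit. Most far regions lie at a fold under 3, red points are most of those under 2 kb with a fold above 3, and blue points are nearly all of those of 10 kb or more.

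Far regions were mostly found either in 1 library or in all 4. Of 1351 merged regions at least 10 kb from genes, 523 had a peak in 1 library, 218 in 2, 149 in 3 and 461 in 4 (34.1%). The share found in all 4 was 41.8% for regions overlapping a gene and 21.5% for those under 10 kb from one. Median width rose with the number of libraries, from 236 bp with 1 to 493, 914 and 2355 bp with 2, 3 and 4. Together the 461 regions spanned 1.80 Mb, 0.203% of the 885 Mb that lie at least 10 kb from genes.

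The distance to the nearest gene had a median of 25.8 kb and a maximum of 332 kb, and 41 regions lay 100 kb or further from any gene. Just inside the limit were regions 10154 bp from Gm25959, 10155 bp from Gm10320 and 10170 bp from Gm7670, with mean folds of 2.12, 2.17 and 3.71. Just outside it were regions 9940 bp from Elovl7, 9943 bp from Ski and 9996 bp from Scnn1b, with mean folds of 2.13, 2.18 and 2.92. The nearest gene was protein-coding for 140 regions, a long intergenic non-coding RNA (lincRNA) for 112 and a processed pseudogene for 93. The nearest protein-coding gene lay at a median distance of 68.4 kb, beyond its 3′ end for 207 regions and upstream of its start for 254.

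Protein-coding genes next to far regions were often marked themselves. For 285 of 461 regions (61.8%, exact 95% binomial interval 57.2% to 66.3%) the nearest protein-coding gene had a shared region within 3 kb of its start, against 49.0% of all 20807 protein-coding genes. Far regions can share a neighbour, and over the 278 distinct neighbours the share was 61.2%. It differed little by side, at 63.3% beyond 3′ ends and 60.6% upstream of starts. Regions next to a marked gene were closer to it, at a median of 48.7 kb against 123 kb. Binomial intervals here cover counting error only.

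The region of highest fold was chr19:35303268-35304444, which is 1177 bp wide and 328 kb from Kif20b, a mitotic kinesin gene. Its highest fold was 13.3 and 13.8 in CTR 1 and 2 and 11.7 and 15.2 in NPM1 KD 1 and 2. Values below follow this order of libraries where no other is given. The groups overlapped, and the mark filled 1151 to 1164 bp of it in every library. No RefSeq gene overlapped it.

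Next came chr1:164973503-164987902, about 38 kb upstream of Xcl1, a chemokine gene that had no shared region at its start. The fold there was 14 and 13.9 in CTR and 12 and 11.3 in NPM1 KD, so both knockdown libraries were the lower ones. Covered length went the other way, with 13099 and 12476 bp in CTR and 13121 and 14400 bp in NPM1 KD. The region chr2:138035891-138037494, 219 kb from Btbd3, had folds of 12 and 12.1 in CTR and 10.1 and 9.17 in NPM1 KD. These were again lower in both knockdown libraries, while its covered length overlapped between the groups. Its summit window was fully repeat-masked, and its 50-base words occurred up to 563 times in the genome.

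Among the 10 regions of highest fold, 6 were at least 10 kb wide. These were the regions near Xcl1, near Fbxo8, far from Mon1b, far from Plxna2, next to Edil3, and next to Tmem33. The region chr8:113287161-113307863 was 20703 bp wide, 194 kb from the nearest gene of any type and 328 kb from Mon1b, and it overlapped no RefSeq gene. Its highest fold was 9.12, 9.11, 7.52 and 8.23, lower in NPM1 KD, while its covered length was 18838, 18962, 20274 and 20703 bp, higher in NPM1 KD. The region chr1:194406250-194418954, 199 kb from Plxna2, a semaphorin receptor gene, had nearly equal folds of 8.14, 7.98, 7.96 and 7.88. The region chr13:89365548-89396322 lay 42.3 kb beyond the 3′ end of Edil3, the gene of a secreted integrin ligand that had no shared region at its start, and its folds were 8.40, 9.02, 7.26 and 6.81.

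The remaining regions of the 10 were shorter. The region chr17:17005088-17011033, 53.1 kb from the zinc finger gene Zfp960, held 2 transcript starts of the RefSeq gene Gm51425. The start with most of the region downstream had 28 bp upstream and 5917 bp downstream. The folds of the region were 8.38, 7.77, 8.31 and 9.69. The tenth region, chr1:142358328-142358999, was 672 bp wide and fully repeat-masked. CTR 1 stood alone there, with a fold of 11.7 against 5.93, 5.35 and 7.35 in the others.

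**Figure D2:**
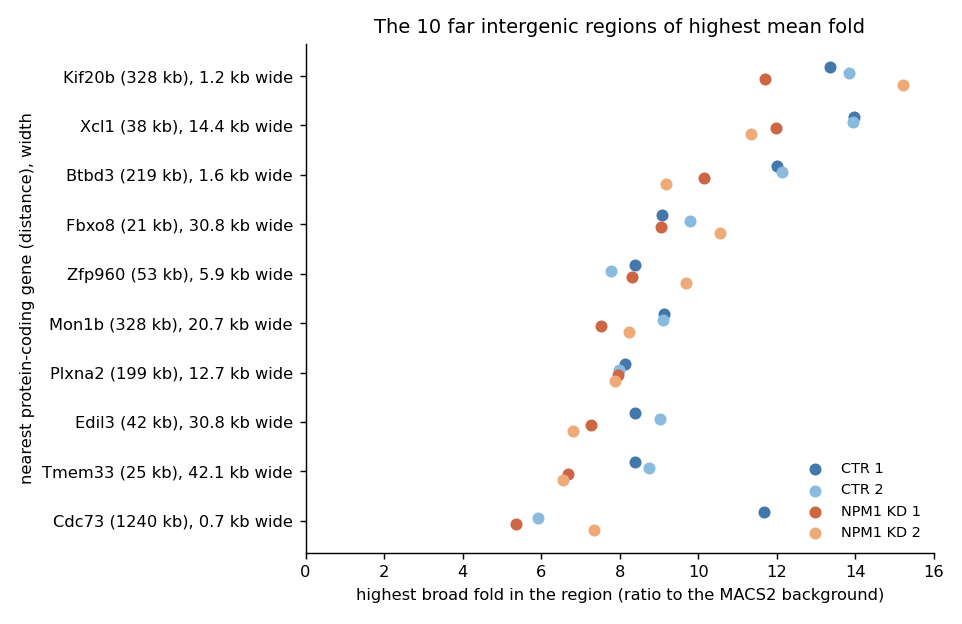
Highest broad fold (x axis, ratio to the MACS2 background, from 0) in each of the 4 libraries for the 10 far intergenic regions of highest mean fold, labelled by the nearest protein-coding gene, its distance and the width of the region. The libraries lie close together except at the lowest row, where CTR 1 stands at 11.7 and the others between 5.35 and 7.35.

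Of the 5 widest far regions, 3 were also among the 10 of highest fold and 2 were weak. The widest, chr5:67193594-67235677, spanned 42084 bp, and its peaks covered 39906 and 40103 bp in CTR against 41273 and 41360 bp in NPM1 KD. Its highest fold was 8.39 and 8.74 in CTR and 6.68 and 6.56 in NPM1 KD. The second, chr2:49571803-49604285, spanned 32483 bp and lay 15 kb upstream of Kif5c, a neuronal kinesin gene whose start was marked. Its folds stayed between 2.82 and 3.03. The fifth, chr18:28358248-28382700, was 1890 kb from Pik3c3 and had folds of 2.35 to 2.92, with 15883 bp covered in CTR 1 and 19694 to 21695 bp in the other libraries. Long and weak domains of this kind stood beside the long and strong ones at Fbxo8 and Edil3.

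RefSeq, which also lists predicted transcripts, held a gene over 94 of the 461 regions (20.4%), of which 67 met a long non-coding RNA and 29 a protein-coding gene. Of the whole space at least 10 kb from GENCODE genes, 7.68% was inside a RefSeq gene. Far regions present in 1, 2 or 3 libraries overlapped a RefSeq gene in 18.9%, 17.0% and 23.5% of cases. No RefSeq gene overlapped the other 367 regions (79.6%), among them 28 that were 10 kb or wider and 35 with a mean fold of 5 or more.

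A RefSeq transcript started inside 16 far regions, and these were wider than the rest, with a median of 5105 bp against 2230 bp for regions without a RefSeq gene. Their median fold was 3.06 against 2.43. In 7 of the 8 that were 5 kb or wider, more of the region lay downstream of the start than upstream, at medians of 6134 bp and 238 bp. In the widest far region Gm33293 had 3991 bp of the region upstream of its start and 38092 bp downstream. The exception was chr4:148744789-148750141, split by the start of Gm32897 into 2746 bp upstream and 2606 bp downstream. Of the 8 under 5 kb, 3 had more downstream than upstream.

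Of 198 mouse enhancers that RefSeq lists from experiments and that lie at least 10 kb from genes, 7 (3.54%) overlapped a far region. These 7, all from transgenic embryos of the VISTA project, met 8 of the 461 regions. These were, by nearest protein-coding gene, an enhancer of dorsal root ganglion next to Bahcc1, one of neural tube and brain next to Tuba1a, one of hindbrain and midbrain next to Irf2bpl, one of forebrain next to Irf2bp2 that met 2 regions, one of limb next to Hand2 and enhancers of heart next to Wnt10a and Tbx20. The strongest of these regions, chr11:120316288-120318709 at Bahcc1, had a mean fold of 5.38. The list covers few enhancers, and the 7 came from embryos and not from N2a cells.

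Many far regions came in strings. The next shared region lay under 5 kb away for 49.7% of far regions and for 67.2% of the other shared regions. With gaps under 100 kb, 167 regions (36.2%) fell into 34 clusters of 3 or more, 100 into pairs, and 194 stood alone. The largest cluster, chr10:9054170-9308935, held 24 regions between Sash1, the gene of a signalling adaptor, and Samd5. It lay beyond the 3′ end of Samd5, where a shared region with a mean fold of 8.37 covered the gene. The 24 regions had mean folds of 1.85 to 2.63. In RefSeq the Samd5 gene reached further, and it covered 7 of the 26 far regions between the genes. The mark covered 66093 and 52010 bp of the string in CTR and 71396 and 66489 bp in NPM1 KD, with CTR 2 well below the rest.

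The second cluster, chr2:56867719-57031029, held 11 regions whose near end lay 75.8 kb from Nr4a2, a nuclear receptor gene of dopaminergic neurons, with the next protein-coding gene on the other side, Kcnj3, 1270 kb away. The covered length was 41317 and 39686 bp in CTR and 47883 and 52171 bp in NPM1 KD, with no overlap of the groups. Clusters of 7 regions lay between Arap3 and Pcdh1 on chromosome 18, between Tarbp1 and Irf2bp2 on chromosome 8, next to Clvs1 on chromosome 4 and next to Enc1, a gene of the developing nervous system, on chromosome 13. Irf2bp2, the gene of a transcriptional corepressor, had a further cluster of 6 regions on its other side.

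On chromosome 8, 7 far regions lay in the 727 kb between Fbxo8, an F-box gene, and Hand2, a basic helix-loop-helix factor of sympathetic neurons, limb and heart. They had mean folds of 2.65 to 9.61 and a summed width of 76.9 kb, and no RefSeq gene overlapped them. The widest and strongest, chr8:56614886-56645642, lay 20.9 kb beyond the 3′ end of Fbxo8, with highest folds of 9.08 and 9.78 in CTR and 9.05 and 10.5 in NPM1 KD, which overlapped. The mark covered 59.8 and 61.4 kb of them in CTR and 72.5 and 74.7 kb in NPM1 KD. Covered length was higher in both NPM1 KD libraries at 6 of the 7, beside 43.9% of all shared regions. The centred mean fold, which averages the peaks of a region, was higher in both at 4 and lower in both at 0 of the 7, beside 13.4% and 28.0% of all shared regions. At chr8:56921517-56936948, in the middle of the interval, it covered 10009 and 11393 bp in CTR and 15337 and 14524 bp in NPM1 KD, while the fold of its highest peak was 7.5 and 6.24 in CTR and 5.10 and 5.90 in NPM1 KD. These neighbourhoods were chosen for drawing after their values were seen.

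**Figure D3:**
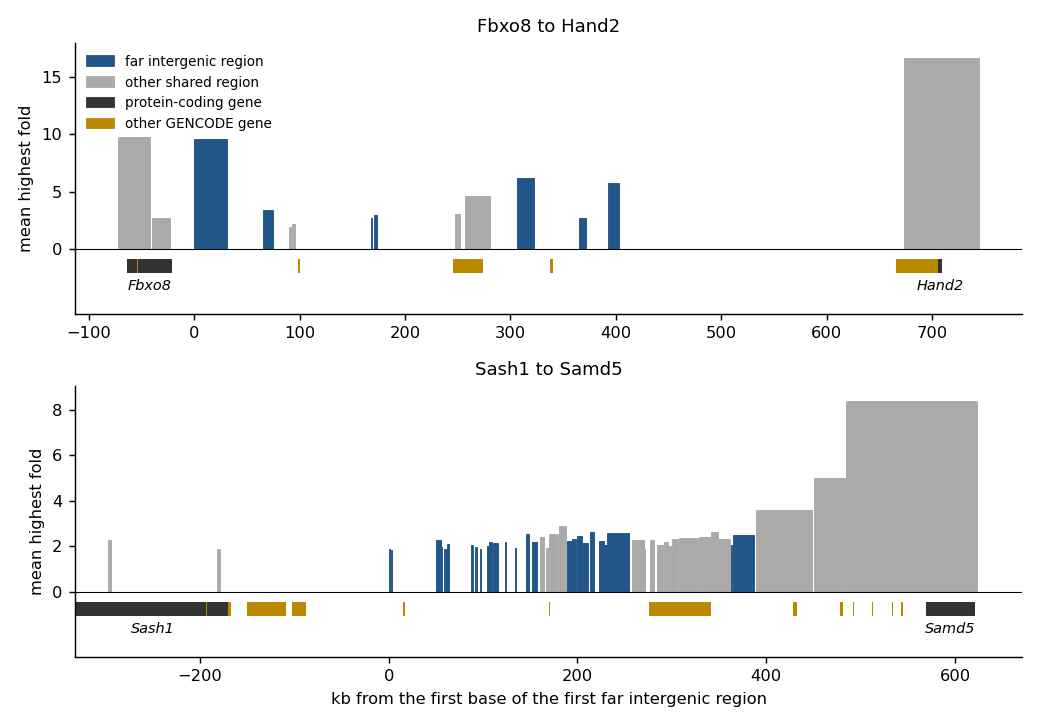
Bars show the mean highest fold (y axis) of far intergenic regions in blue and of other shared regions in grey against the distance in kb from the first base of the first far region (x axis), in the 2 neighbourhoods named above each panel. Boxes under the axis are protein-coding genes in black and other GENCODE genes in ochre. The 7 regions before Hand2 stand apart from one another, with folds of 2.65 to 9.61, and those next to Samd5 form a string of fold 1.85 to 2.63.

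Genes known in sympathetic neurons and neuroblastoma were looked up by name. A shared region lay at the start of Phox2a, Hand2, Gata2, Isl1, Insm1, Mycn, Sox11, Sox4, Ret, Alk, Chga, Chgb and Stmn2, and at none of Hand1, Gata3, Tfap2b, Th and Dbh. Far regions within 500 kb were found at Hand2 (4), the receptor gene Ret (3), the chromogranin A gene Chga (2), the homeodomain gene Isl1 (1) and the oncogene Mycn (1), and at none of the others named. Over all protein-coding genes 10.2% had one, and 11.9% of those marked at the start. The distance of 500 kb was set after the values were seen. The nearest far region of Chga was 25.9 kb away, that of Hand2 48.8 kb, that of Ret 125 kb and that of Mycn 276 kb. Of 14 markers of other cell types only Mbp was marked at its start and only Aqp4 had a far region within 500 kb.

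The far regions differed in sequence from the other shared regions in their content of repeats. Soft-masked repeat sequence made up a median of 32% of the summit window in the 457 regions with a narrow summit and 9.67% in the other shared regions, of which those outside genes but under 10 kb from one had 22.7%. Their GC content was 48.7% and 0.229 of the expected CpG pairs were found, close to 49.3% and 0.189 at the other summits further than 3 kb from a protein-coding start and unlike 56.0% and 0.461 at summits near one. A CpG island lay within 1 kb of 31.7% of far summits, 19.4% of other summits away from starts and 79% of summits at starts. The GATA word was found in 16.6% of far windows and 10.2% of the others, the TATA word in 15.5% and 10.8%, and AP-1 in 6.13% and 5.45%. Among other summits further than 3 kb from a protein-coding start the shares were 11.4%, 12.7% and 6.15%. In windows of 1000 bp the TATA word was at 50.1% of far windows and 50.2% of those other summits. E-box and homeodomain words were at 3.06% and 3.50% against 4.87% and 3.96%. In 288 of the 461 regions no motif was found at the summit. These include the 4 regions without a narrow summit, where no window was searched.

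A window was called multicopy when more than 50% of its sampled 50-base words occurred at other places in the genome. This held for 84 of 457 far windows (18.4%), 2.57% of the other shared windows, and 12.9% of those that lay outside genes but under 10 kb from one. Among far regions with a mean fold of 5 or more it held for 14 of 38 (36.8%). Multicopy regions were short, with a median width of 705 bp against 2654 bp for the other 373, and had a higher median fold, 2.85 against 2.31. Their nearest protein-coding gene was further away, at 163 kb against 59.7 kb, and was marked in 45.2% against 66.0% of cases. Aligned to each other, the summit windows of all far regions, multicopy or not, formed 8 families of 3 or more. These shared at least 80% identity over 150 bp and had 18, 13, 10, 9, 7, 5, 4 and 3 regions. The family of 13 lay on 8 chromosomes and held 5 regions with a mean fold of 5 or more, among them the one near Btbd3. The most repeated word of each of its windows was found a median of 563 times. The methods keep uniquely mapping reads, and only the broad lists are named as filtered. How reads were placed in these 84 windows was not checked here.

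The question the groups address is whether loss of nucleophosmin changes H3K79me2. Summed over the far regions, the mark covered 1465 and 1379 kb in CTR and 1557 and 1512 kb in NPM1 KD. The means were 1422 ± 60.9 kb and 1535 ± 31.9 kb (SD, n = 2), and the groups were apart (two-sided exact permutation test over libraries, p = 0.33, the smallest 4 libraries allow). The difference was 113 kb, and 69.9 kb without CTR 2. By replicate number it was 92.5 kb and 133 kb. The rise of 7.94% stood beside 6.22% in the other shared regions. Narrow peaks inside the same regions summed to 1209, 1084, 1203 and 1241 kb, where CTR 1 exceeded NPM1 KD 1 (two-sided exact permutation test, p = 0.667).

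Region by region, gains and losses were more evenly mixed in the far regions than over all shared regions. Covered length was higher in both NPM1 KD libraries at 140 far regions (30.4%), where the share over all shared regions was 43.9%, and lower in both at 64 (13.9%), where it was 4.90%. The remaining 257 overlapped. The median change was 0.05 on the log2(covered bp + 1000) scale against 0.09 over all shared regions. Of the 545 shared regions under 10 kb from a gene, 34.7% were higher and 7.52% lower in both NPM1 KD libraries. By width, among far regions under 2 kb, 24.0% were higher and 16.3% lower, against 30.1% and 8.25% of all shared regions of that width. Among far regions of 2 to 5 kb, 34.7% were higher and 15.3% lower, against 42.8% and 5.41%. At 10 kb or more, 32.4% were higher and 2.94% lower, against 51.4% and 3.04%. No test was made of these shares.

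In limma across 49835 merged regions no far region passed an adjusted p of 0.05 for covered length, where 0.0482% of all regions did. The smallest adjusted p among the far regions was 0.0884, and 35 had an unadjusted p under 0.05, of which 29 were higher and 6 lower in NPM1 KD, beside 4361 higher and 144 lower of all 49835. That smallest value belonged to chr8:56921517-56936948 between Fbxo8 and Hand2, with a rise of 0.45 ± 0.07 (log2, SE; limma, Benjamini-Hochberg adjusted p = 0.0884). The 49835 also hold regions without a peak in every library, unlike the far regions. With limma on the 20216 shared regions alone, 38 far regions were higher and 10 lower at an unadjusted p under 0.05. Over all 20216 these numbers were 2927 and 125, and 0 regions passed the adjusted threshold. No far region passed without any 1 of the libraries either. By the methods, a replicate had its own passage and its own transfection batch, and CTR and NPM1 KD of 1 number could thus come from 1 batch. With the replicate number as a block, which leaves 1 residual degree of freedom per region, limma passed 23 far regions, 19 of them higher in NPM1 KD, where 6.40% of all regions passed. The largest gain was at chr5:67535025-67539449, 68.4 kb from Shisa3, with 365 and 243 bp in CTR and 4425 and 2316 bp in NPM1 KD, a difference of 1.70 ± 0.32 (log2, SE; limma, Benjamini-Hochberg adjusted p = 0.132). The groups were far apart there, but its fold stayed at 1.75 to 2.14. The next gains were at chr4:89353134-89355545, 42.1 kb from the cell cycle inhibitor gene Cdkn2b, with 574, 201, 2316 and 2268 bp, and at chr6:133127937-133130000 near Smim10l1, with 128, 838, 1800 and 2064 bp (limma, Benjamini-Hochberg adjusted p = 0.224 and 0.424). The RefSeq gene Gm12610 overlapped the region near Cdkn2b.

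The largest losses were at chr4:9225922-9228470 in the Clvs1 cluster, with 2549, 975, 403 and 329 bp, at chr11:31549760-31554634, 111 kb beyond Bod1, with 2610, 4875, 1366 and 1404 bp, and at chr2:28381446-28383697 over the RefSeq start of Gm13373, with 2252, 2071, 605 and 737 bp. None passed the threshold (limma, Benjamini-Hochberg adjusted p = 0.523, 0.294 and 0.335). In RefSeq the Clvs1 gene overlapped the first of these regions. In the Clvs1 cluster, 5 of 7 regions were lower in both NPM1 KD libraries and 1 was higher, and its summed coverage was 14050, 13206, 10539 and 7618 bp. Of the 34 clusters, 15 had a higher summed coverage in both NPM1 KD libraries, 4 a lower one and 15 overlapped. Of single far regions 30.4% were higher and 13.9% lower in both, and of single shared regions 43.9% and 4.90%. A sum over a cluster is not the same unit as a single region, so these shares are not directly comparable. All of the regions with the largest gains and losses had a mean fold of 1.95 to 2.04, near the lower end of the list.

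The fold, centred on the median of all shared regions in each library, was tested across the 20216 shared regions, of which 0.0643% passed. The far regions held 2 of the 13 that passed, and both are named here after their values were seen. The first, chr8:56782170-56783857, is one of the 7 regions between Fbxo8 and Hand2. Its mean fold was 2.15 and 2.07 in CTR and 3.50 and 3.03 in NPM1 KD, a rise of 0.62 ± 0.08 (log2, SE; limma, Benjamini-Hochberg adjusted p = 0.0272). Its neighbour chr8:56785447-56788526, the next far region on the chromosome, had 2.28, 2.87, 3.02 and 3.68, again higher in NPM1 KD, but did not pass (limma, Benjamini-Hochberg adjusted p = 0.222). The second, chr14:85179529-85180082, 641 kb from Pcdh17, was 554 bp wide, fully repeat-masked and multicopy. Its fold was 3.59, 4.46, 2.22 and 2.44, a fall of 0.79 ± 0.10 (log2, SE; limma, Benjamini-Hochberg adjusted p = 0.0272). Without centring neither passed, and the smallest adjusted p in limma was 0.0516. Far regions past the threshold numbered 1 without CTR 1, 8 without CTR 2, 9 without NPM1 KD 1 and 21 without NPM1 KD 2, while 1, 23, 241 and 214 of all shared regions passed. In each of these fits the lone library of a group is assumed to vary like the other group. With the replicate block, 59 far regions passed, 8 of them higher in NPM1 KD, where 4.15% of all shared regions passed.

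Over all far regions the centred fold was higher in both NPM1 KD libraries at 44 (9.54%, against 13.4% of all shared regions) and lower in both at 142 (30.8%, against 28.0%). The lower folds were unevenly spread. Of the 84 multicopy regions 36 (42.9%) were lower in both NPM1 KD libraries and 0 higher, with a median change of -0.17 (log2). The corresponding numbers were 106 and 43 of the 373 other far regions (28.4% and 11.5%), with a median change of -0.03. The median highest fold of multicopy far regions was 3.15 and 2.96 in CTR and 2.57 and 2.68 in NPM1 KD. Leaving out any 1 library kept the median change between -0.11 and -0.22. Among multicopy regions under 2 kb it was -0.17 (67 regions), against -0.02 in other far regions of that width (126 regions).

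Multicopy windows outside the far regions showed a smaller shift. The 506 other shared regions of this kind had a median change of -0.03, with 28.9% lower and 10.7% higher in both NPM1 KD libraries, and the 190 of them under 2 kb a change of -0.08. The families were formed from all far windows, multicopy or not. In the family of 18 far regions the median change was -0.17 with 16 lower, and in the family of 13 it was -0.24 with 13 lower. In the family of 10, where a median of 28.8% of a window's words occurred elsewhere, it was 0.004 with 4 lower. In the families of 9, 7, 5, 4 and 3 it was -0.05, -0.11, -0.42, -0.27 and -0.33. The family of 10 had more covered bp in both NPM1 KD libraries at 9 of its regions. The multicopy class and the families were formed after values were seen and got no test. The part that reads of other copies have in this shift was not tested.

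**Figure D4:**
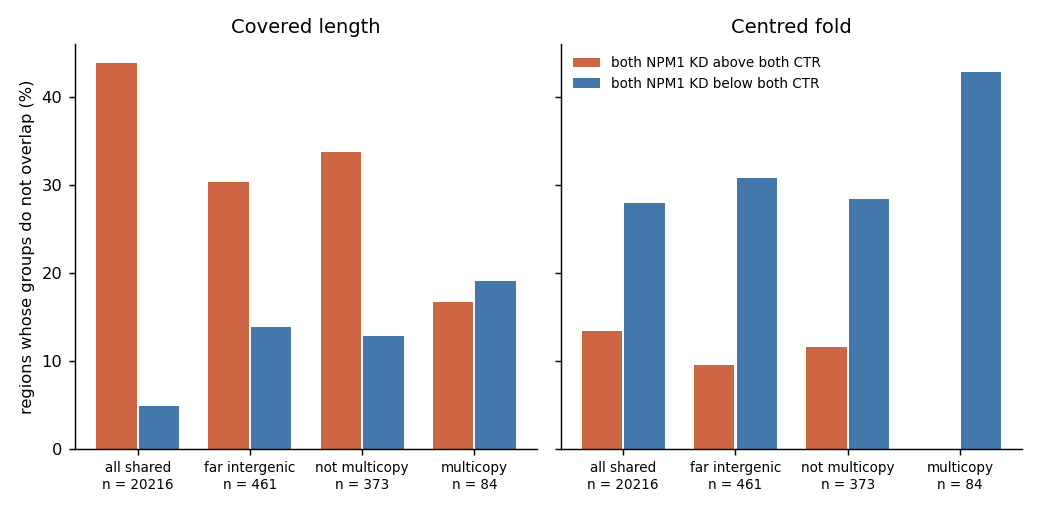
Share of regions (y axis, percent, from 0) in which both NPM1 KD libraries lay above (orange) or below (blue) both CTR libraries, for covered length on the left and centred fold on the right. The groups of bars are all 20216 shared regions, the 461 far regions, and the 373 and 84 of these without and with a multicopy summit window. For covered length the upward shares are 43.9%, 30.4%, 33.8% and 16.7% in that order, and for fold the multicopy regions show 42.9% downward and 0 upward.

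**Figure D5:**
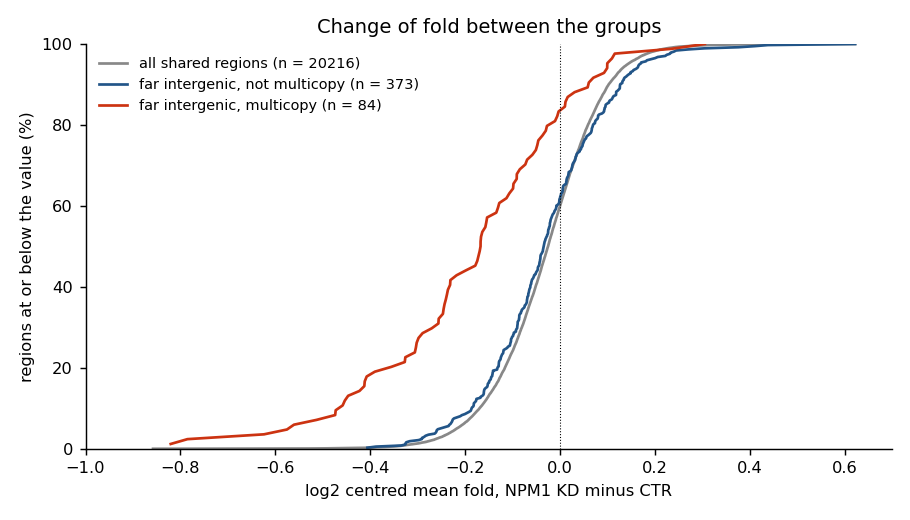
Cumulative share of regions (y axis, percent) by the difference in centred log2 mean fold, NPM1 KD minus CTR (x axis), for all 20216 shared regions in grey, the 373 far regions without a multicopy summit window in blue and the 84 with one in red. Grey and blue curves nearly coincide, with medians of -0.03, and the red curve lies to their left with a median of -0.17.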

How the data were processed

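The 4 libraries were sequenced by the authors as paired-end reads, aligned to mm10 (GRCm38) with Bowtie2 (2.3.4.1 in the submitters' processing notes), filtered for mapping quality, keeping uniquely mapping reads, and given to MACS2 (2.2.6 in the same notes), which made 1 narrow and 1 broad peak list per library. Whether the pooled inputs entered the calling was not given in the sources used here, and only the broad lists are named as filtered. By the MACS2 format, the score column that was deposited holds the −log10 q multiplied by 10. The deposited fold is a ratio of pileup to background, averaged over a broad peak and taken at the summit of a narrow one. The authors also left the −log10 p and −log10 q of MACS2 for every peak. No reads were analysed here.

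The far regions and the gene lists were chosen with earlier results of these data known. Peaks on chromosomes 1 to 19 were merged at 1 bp of overlap, and genes of any type came from GENCODE release M21. The regions named were the 10 of highest mean fold, the 5 widest, the 3 per direction with the largest change in covered length among those whose groups did not overlap, and those past a threshold, with the 3 on each side of the 10 kb limit and the 5 clusters of most regions (with a further one tied). Covered length was tested with limma 3.58.1 (R 4.3.3) as log2(covered bp + 1000), and the mean broad fold of a region as log2 centred on the median of shared regions, where p-values were adjusted by Benjamini-Hochberg across the whole table and called under 0.05. These tests compare called extent and caller ratios, whereas the study tested read counts, which need reads. Values per library were compared with exact permutation tests. In data simulated on the 49835 regions, the covered length test recovered 29 of 200 regions changed by 1 log2 unit and 169 of 200 changed by 4, and the fold test on 20216 regions recovered 168 of 200 changed by 1. Summit pileups were solved from the fold and Poisson p of narrow peaks. They came out whole, within 0.01 of the −log10 p, for 100% of 4000 peaks sampled per library. Total reads remained unknown. Some items of the gene lists are not reported here. RefSeq genes, enhancers and sequence came from GRCm38.p6. Words of 50 bases, sampled every 10 bases of a summit window, were counted on both strands of chromosomes 1 to 19, X and Y. Windows were aligned with blastn 2.17.0. The other steps used Python 3.11.15 with scipy 1.17.1, pandas 2.3.3, numpy 2.4.6 and matplotlib 3.10.9. Alternatives covered the lists, the thresholds on peaks and distance, the pseudocount, the scaling, the reference set, the window, the replicate block and leaving out each library.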

Additional observations from a re-analysis of the deposited data

How the results depend on the processing

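The 461 far regions became 1354 with the narrow lists, 119 once broad peaks needed a −log10 q of 5 or more, 290 at 20 kb or more from genes and 1152 with protein-coding genes as the only reference, and they numbered 483 to 561 when 1 library was left out. The median fold difference from the other shared regions was -1.13 in the narrow lists, -0.363 without multicopy regions (an alternative chosen after seeing the data) and turned to 0.0899 against regions under 10 kb from a gene. The share of marked nearest genes was 69.4% by gene body. The difference in summed coverage stayed positive in the alternatives run and was 69.9 to 156 kb without 1 library. For covered length, limma passed 24 regions, but 0 with a pseudocount of 200 bp, with narrow peaks or among shared regions only, 15 with that limit on q, and 0 to 10012 when 1 library was left out (0 without either CTR library, 8467 without NPM1 KD 1 and 10012 without NPM1 KD 2). For the fold it passed 13, but 0 without centring, 2 with narrow folds, 75 with highest broad folds and 1 to 241 without 1 library. The cause was not tested. The deviations of libraries of the same number had a correlation of 0.0771 for covered length and 0.0958 for fold, which does not show whether the numbers pair them. With a replicate block, limma passed 3188 regions for covered length, 23 of them far, and 838 for fold, 59 of them far, while the difference in summed coverage was 113 kb (exact sign-flip permutation test, p = 0.5, the smallest possible with 2 pairs). CTR 2 had the lowest background pileup and the fewest broad peaks, and what depth contributes to the calling of weak regions was not tested.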
